A study of Homo sapiens with 12 samples.

Results

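The comparison described here set all 9 libraries of TK6 cells that had been given 3-methylcholanthrene, pooled as one group over 3 concentrations, against the 3 libraries of untreated cells. These are all 12 libraries of the series, and membership followed from the names of the columns in the table of raw counts. TK6 is an established human lymphoblastoid line of B-cell origin, widely used in genotoxicity tests. The cells were kept for 24 h with 0 µg/mL (control), 0.0004 µg/mL (low), 0.04 µg/mL (medium) or 4 µg/mL (high) of the compound, with 3 libraries per concentration, and polyadenylated RNA was captured and sequenced. No genotype or second agent separated the groups, all libraries came from 1 cell line, and the labels do not say whether the libraries of a concentration were separate cultures, and p-values therefore refer to the spread of these libraries, which may be technical.

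3-Methylcholanthrene is a carcinogenic polycyclic hydrocarbon that binds and activates AHR, the aryl hydrocarbon receptor. The ligand-bound receptor enters the nucleus, pairs with ARNT and binds DNA at a short motif with the core GCGTG, where it switches on genes such as CYP1A1. Cytochrome P450 enzymes turn the hydrocarbon into reactive forms that bind DNA bases as bulky adducts, which nucleotide excision repair removes, and damaged DNA activates p53.

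Very little separated the pooled treated libraries from control. Of 12030 genes with enough counts to test, edgeR's quasi-likelihood test called 2 (0.0166%) at a Benjamini-Hochberg adjusted p below 0.05, both lower in treated cells: GGNBP2_1 and PSMC4. No gene was called higher (0%), although 283 genes (2.35%) had an unadjusted p below 0.05 and a higher level, against 186 genes (1.55%) with a lower level. That split depends on the scaling, since with no composition factor 163 genes were higher and 414 lower at this p. DESeq2 called 1 gene higher, NIPA2_1, an entry from an alternate version of its locus that is described below, and limma voom called none. Together these 469 genes (3.9%) were fewer than the 601.5 that a test with no differences gives on average. Single libraries moved their number by over 1.5 times: it was 897 without high replicate 2, 867 without low replicate 2, 748 without control replicate 1, 286 without control replicate 2 and 288 without control replicate 3. The median log2 fold change over all genes tested was 0.00583, with 6157 genes above control and 5873 below, and the median standard error of a gene's log2 fold change was 0.156.

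Library totals ran from 9163368 to 19841387 counts, with medians of 9472660 in control and 10296847 in treated libraries. Low replicate 3 and high replicate 3 stood apart from the other libraries on the first principal component, with scores of -51.1 and -44.1 against -24.4 to 37.9 in the rest. The same pair had the highest share of mitochondrial 16S ribosomal RNA, so list medians that lay over 0.05 from zero on the log2 scale and moved by over 1.5 times without both are also given without them where the list is described. B cell markers summed to between 2910 and 3490 CPM (counts scaled to a library of 1000000, on edgeR's TMM scale, as for all CPM below) in control and between 2670 and 3690 in treated libraries, with CR2 at 0 in all 12. Each marker sum covers only the markers with enough counts to test, 12 of 15 for B cells and 6 of 11 for stromal and epithelial cells. Markers of T and NK cells (2 of 11 tested) summed to at most 14.3 CPM and those of myeloid cells (4 of 9 tested) to at most 29.3 CPM. No erythroid marker had enough counts to test, and 5 of the 6 were at 0 in all 12 libraries. Stromal and epithelial markers summed to between 515 and 616 CPM, mostly from VIM (422 CPM on average in control) and the keratin gene KRT8 (149.9 CPM), while EPCAM, KRT19, COL1A2 and COL3A1 were at 0 in all 12 libraries.

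**Figure D1:**
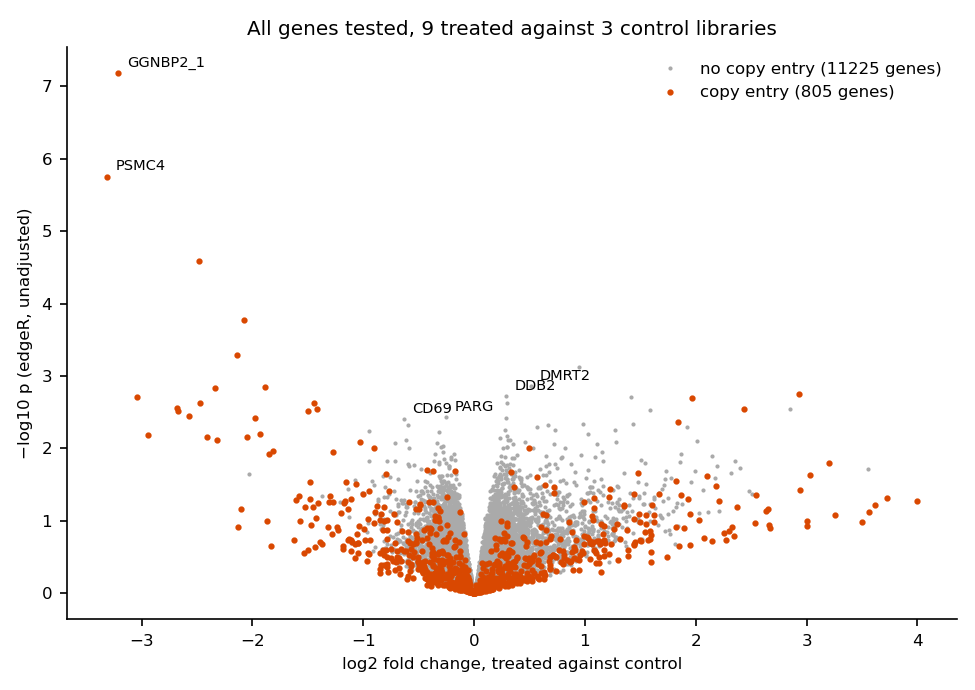
Each point is 1 of the 12030 genes tested, with the log2 fold change of 9 treated against 3 control libraries on the horizontal axis and the −log10 of the unadjusted edgeR p on the vertical axis. Orange points are the 805 genes with a copy entry, and GGNBP2_1 and PSMC4, the 2 called genes, lie at the upper left.

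Pooling assumed that the 3 concentrations form one group, and an F test among low, medium and high, which does not use the control levels, asked whether they differed. edgeR called 0 of 12030 genes (0%), with a smallest adjusted p of 0.110 and 198 genes at an unadjusted p below 0.05. A DESeq2 likelihood ratio test over the treated libraries called 12. Pooling also leaves the groups unequal: with 9 libraries against 3, every value rests on the same 3 controls.

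The 2 called genes both have copy entries, meaning that the count table lists the same symbol more than once because the genome build carries alternate versions of the locus. A read that matches both versions equally well has no unique place, which makes the level of any single entry uncertain. Sums over entries are uncertain too, since such reads may be missing from every entry, which was not tested. GGNBP2_1 is the alternate-locus entry of GGNBP2, which encodes gametogenetin-binding protein 2, at positions 779823 to 825343 of its alternate contig in GRCh38.p14. It stood at 9.85, 11.3 and 10.4 CPM in the controls and at 0.527 CPM at the lowest, 0.896 CPM at the median and 2.19 CPM at the highest in the treated libraries. Every treated library lay below every control, and by a wide gap. The log2 fold change was -3.21 ± 0.33 (SE; 95% interval -3.92 to -2.50; edgeR adjusted p = 0.000786), and by concentration the values were -3.57, -3.04 and -3.10 for low, medium and high.

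The second entry of this gene behaved differently in 2 treated libraries. GGNBP2 on chromosome 17 (36544919 to 36589848) stood at 0.609, 0.410 and 0.221 CPM in the controls and at no more than 1.07 CPM in 7 of the treated libraries. In medium replicate 2 it stood at 8.96 CPM and in high replicate 2 at 8.82 CPM. Both entries summed gave 10.5, 11.7 and 10.7 CPM in control, 9.85 CPM in medium replicate 2 and 9.54 CPM in high replicate 2, so those 2 libraries lay near the controls, while the other 7 lay between 0.633 and 2.86 CPM. The summed gene had a log2 fold change of -1.62 ± 0.682 (SE) and was not called (edgeR adjusted p = 0.741).

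PSMC4 (chromosome 19, 39971165 to 39981764) encodes an ATPase subunit of the proteasome's regulatory particle. It stood at 3.86, 27.9 and 29.0 CPM in the controls, and at 0.804, 2.16 and 3.07 CPM as the lowest, median and highest of the treated libraries. The groups did not overlap, but control replicate 1 lay just above the highest treated library, medium replicate 1, and far below the other controls. The log2 fold change was -3.31 ± 0.45 (SE; 95% interval -4.29 to -2.33; edgeR adjusted p = 0.0106), and its copy entry held 0.203 CPM in control replicate 1 and 0 in all other libraries. Reads that match both entries may be missing from both, so the level of the gene itself is uncertain. Without control replicate 2 or 3 the call was lost, with log2 fold changes of -3.02 and -2.95 (edgeR adjusted p = 0.109 and 0.126). It was also lost with limma voom, at -2.96 (adjusted p = 0.771), and when the low, medium or high libraries were left out, at -3.10, -3.49 and -3.37 (edgeR adjusted p = 0.228, 0.260 and 0.317). Of the 35 proteasome genes tested, PSMC4 among them, 18 lay above control and 17 below, with a median log2 fold change of 0.03.

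**Figure D2:**
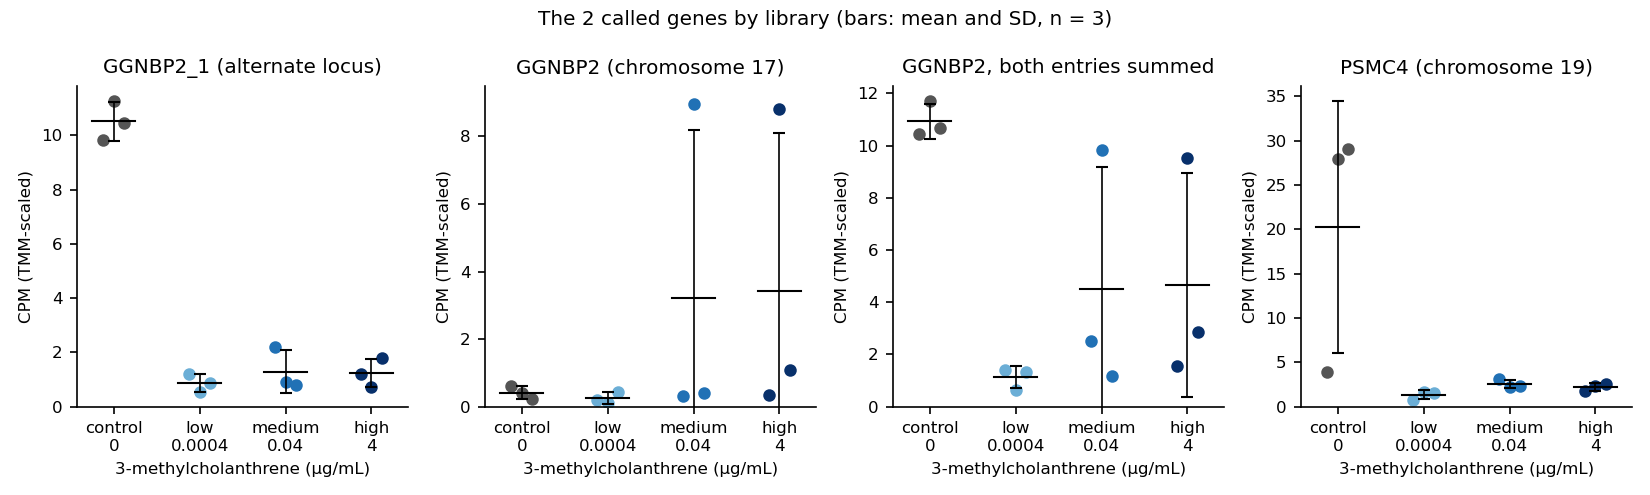
Points are libraries, in CPM on the TMM scale, by concentration, with the mean and SD of each 3 libraries, in one panel each for both GGNBP2 entries, their sum and PSMC4. Medium replicate 2 and high replicate 2 hold 8.96 and 8.82 CPM at the chromosome 17 entry, and their sums of 9.85 and 9.54 CPM lie beside the controls.

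Copy entries were more frequent among small p-values than in the table. They made up 805 of the 12030 genes tested (6.69%), 66 of the 469 genes with an unadjusted p below 0.05 (14.1%) and 20 of the 30 genes with the smallest p. The third smallest adjusted p, 0.102, belonged to ZNHIT3_1, the alternate-locus entry of a zinc-finger HIT domain gene, which stood at 1.22, 10.3 and 6.99 CPM in control and at 0.704 to 1.52 CPM in treated libraries. The fifth smallest p was that of SURF4_1, the entry of an endoplasmic reticulum cargo receptor, and it had 45.1 CPM in control replicate 3 but 5.38 and 5.54 CPM in the other controls. Control and treated libraries overlapped for both of these entries. LDHA_1, the lactate dehydrogenase A entry that held nearly all counts of that symbol, stood at 139, 20.7 and 67.2 CPM in control against 8.89, 18.6 and 30.4 CPM as the lowest, median and highest treated libraries (log2 -2.07 ± 0.44, SE; edgeR adjusted p = 0.502). Together the genes with a copy took 1.09 ± 0.063% of counts in control (SD, n = 3) and 1.01 ± 0.036% in treated libraries (SD, n = 9), which did not pass after adjustment over 9 library measures (exact permutation p = 0.0182, 2-sided, Benjamini-Hochberg adjusted p = 0.164).

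Among the 11225 genes tested that have no copy, the smallest adjusted p was 0.740, so every gene named from here on, except where a copy is mentioned, failed the test and is described by its values. A second view asked in how many genes all 9 treated libraries lay on one side of all 3 controls. That held for 60 genes with treated libraries higher (0.499% of those tested) and 45 with treated libraries lower (0.374%), 105 in all (0.873%). Were all 12 libraries interchangeable, a gene would separate in this way, in either direction, with a probability of 0.00909. The share seen is no larger than that, so the separation alone does not set these genes apart from chance. Of these, 55 and 39 have no copy. Most genes described next were named for a small p or for this separation, so their lack of overlap follows from the choice.

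DDB2 (chromosome 11, 47214454 to 47239217), a damage-recognition subunit of nucleotide excision repair and itself a p53 target, was one of them. It stood at 40.5, 39.3 and 33.9 CPM in control and at 41.6, 47.2 and 48.6 CPM as the lowest, median and highest treated libraries. All treated libraries lay above all controls, though low replicate 2 did so by about 1 CPM. The log2 fold change was 0.29 ± 0.08 (SE; 95% interval 0.13 to 0.45; unadjusted p = 0.00189, edgeR adjusted p = 0.740). At the low, medium and high concentrations it came to 0.27, 0.33 and 0.28 (SE 0.10 each), values that share the same controls.

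NMNAT1 (chromosome 1), the nuclear enzyme that makes NAD, stood at 18.5, 18.98 and 21.3 CPM in control and at 21.9, 24.3 and 25.9 CPM as the lowest, median and highest treated libraries (log2 0.30 ± 0.08, SE). PARG (chromosome 10, 49818279 to 49942027), which removes poly(ADP-ribose) chains made from NAD, lay on the other side. It stood at 54.5, 53.9 and 50.3 CPM in control and at 40.9, 43.5 and 49.4 CPM as the lowest, median and highest treated libraries. In neither gene did a treated library reach the range of the controls, and for PARG the low libraries (40.9 to 42.5 CPM) and high replicate 3 (42.4 CPM) were the farthest from it. The log2 fold change of PARG was -0.25 ± 0.07 (SE; edgeR adjusted p = 0.740), with -0.34, -0.25 and -0.18 in low, medium and high.

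DMRT2 (chromosome 9), a transcription factor gene of the DMRT family, had 11.6, 16.9 and 15.2 CPM in control and 18.6, 20.3 and 25.8 CPM as the lowest, median and highest of the treated libraries, a log2 fold change of 0.51 ± 0.13 (SE). CD69 (chromosome 12), an early activation antigen of lymphocytes, had 6.60, 5.64 and 7.43 CPM in control and 3.17, 4.19 and 5.37 CPM as the lowest, median and highest of the treated libraries, a log2 fold change of -0.64 ± 0.19 (SE). Both sets of libraries were separate, and both genes had an edgeR adjusted p of 0.740. ZNF561-AS1, a long noncoding RNA of chromosome 19, had the smallest p of all genes with no copy (0.000745) and a log2 fold change of 0.94 ± 0.21 (SE), from 16, 18 and 20 counts in the controls and 25 to 70 counts in the treated libraries.

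**Figure D3:**
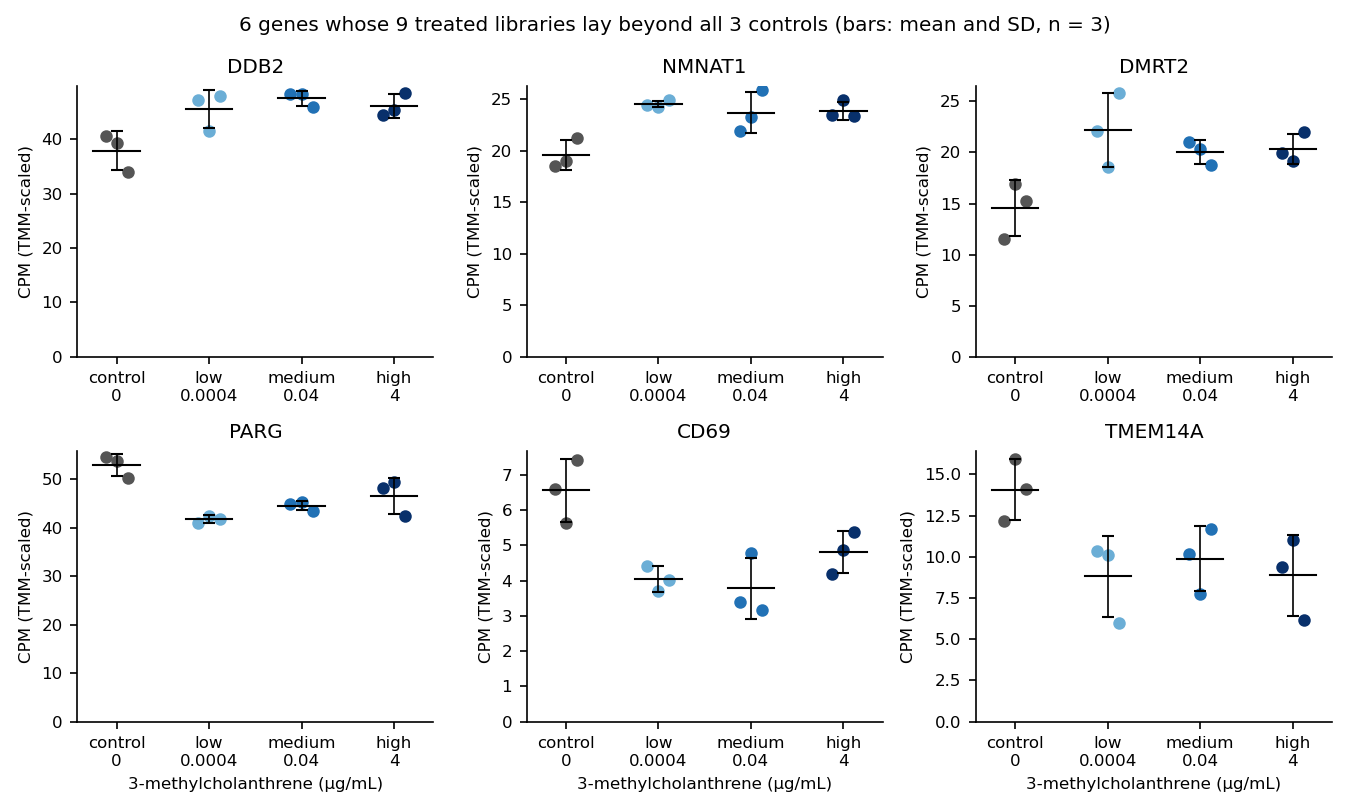
Points are libraries in CPM on the TMM scale, with the mean and SD of each 3 libraries, for DDB2, NMNAT1 and DMRT2, where treated libraries lay higher, and PARG, CD69 and TMEM14A, where they lay lower. The genes were picked among those without overlap, so the gap between treated and control libraries follows from the choice. The 3 concentrations overlap each other except low against medium in PARG.

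The rest of the genes named by this separation had small differences. Higher in all treated libraries were MMAA, which handles vitamin B12 in mitochondria (log2 0.35 ± 0.11, SE), RSRC2 (0.34 ± 0.12), RPS29, a protein of the small ribosomal subunit (0.32 ± 0.10), COA6, an assembly factor of cytochrome c oxidase (0.32 ± 0.14), and N6AMT1, a methyltransferase (0.30 ± 0.10). RPS29 stood at 106, 117 and 108 CPM in control and at 118, 138 and 170 CPM as the lowest, median and highest treated libraries. Its low, medium and high libraries gave log2 fold changes of 0.25, 0.21 and 0.50, with an unadjusted p of 0.0259 among treated groups (edgeR F test, not passing). Lower in all treated libraries were TMEM14A (-0.61 ± 0.20), CDK19, a kinase of the Mediator complex (-0.48 ± 0.18), MGME1, a nuclease that maintains mitochondrial DNA (-0.39 ± 0.17), TBC1D24 (-0.36 ± 0.13), SKIL, a repressor of TGF-beta signalling (-0.33 ± 0.11), and LZTS2 (-0.32 ± 0.10). RNASEH1-DT, a noncoding transcript that starts beside the gene of ribonuclease H1, was at -0.59 ± 0.18 and MXRA8, a receptor-like surface protein, at 1.41 ± 0.36 from 6 to 10 counts per control library. ACP4 and ZNF595 were among the 6 smallest p-values of their direction but their libraries overlapped. ACP4 had 3, 1 and 0 counts in the controls and 4 to 18 in the treated libraries, and ZNF595, a zinc finger gene, was at -0.95 ± 0.30, with control replicate 2 at 23.6 CPM against 10.2 and 9.78 CPM, and at -0.41 without that library.

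The receptor's own genes gave little to test. AHR, its repressor AHRR and CYP1B1, a hydrocarbon-metabolising P450 gene, had 0 counts in all 12 libraries, where 3 counts, the limit that a count of 0 allows, equal 0.151 to 0.327 CPM. The exon bases of AHRR were shared with another gene for 97.2% of their length and those of AHR for 4.18%, and whether reads of these genes were lost in counting was not tested. CYP1A1 held 0, 4 and 0 counts in the controls and between 0 and 4 in each treated library. The high libraries held 2, 0 and 4 of these counts. Its 20 counts in total were too few for it to be tested. ARNT, the partner of AHR, differed by -0.21 ± 0.20, TIPARP, an ADP-ribosyltransferase induced by AHR, by -0.11 ± 0.10, and NQO1, a quinone reductase, by -0.18 ± 0.17 (log2, SE; edgeR adjusted p = 0.748, 0.748 and 0.746). The 95% interval of TIPARP ran from -0.33 to 0.11 and that of NQO1 from -0.55 to 0.19, and without control replicate 2 the value of TIPARP was 0.00404. Without control replicate 3, NQO1 was at -0.0737 and ARNT at -0.107. TIPARP stood at 31.0, 41.0 and 34.9 CPM in control and at 29.6, 32.3 and 39.0 CPM as the lowest, median and highest treated libraries, overlapping throughout. Of the 22 genes listed as AHR battery, 8 were tested and 7 of them lay below control, with a median log2 fold change of -0.15 against 0.00583 for all genes. By concentration the median was -0.14, -0.17 and -0.10 in low, medium and high. NFE2L2, the gene of the NRF2 transcription factor, was the exception at 0.28, while SLC7A5, an amino acid transporter, was at -0.16 ± 0.09 and ASAP1, a regulator of ARF GTPases, at -0.15 ± 0.08 (SE). None was called, and 0 of the 8 had libraries that did not overlap. The 8 tested genes of the AHR complex, which holds the receptor's chaperones and transport factors, were split into 4 above and 4 below control (median 0.03), with RELB at 0.31 ± 0.15 and the export receptor XPO1 at -0.15 ± 0.07 as the members with the smallest p.

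The 250 bases upstream of the annotated start are shown for CYP1A1, the reference target of the receptor, and for 3 of the genes whose libraries did not overlap. They are from RefSeq on GRCh38.p14, on the strand of the gene, and capitals mark the core motif GCGTG or its reverse complement CACGC. CYP1A1 (chr15:74725529-74725778, minus strand), DMRT2 (chr9:1050107-1050356, plus strand) and PARG (chr10:49942028-49942277, minus strand) have 1 match each, and DDB2 (chr11:47214204-47214453, plus strand) has 0.
CYP1A1: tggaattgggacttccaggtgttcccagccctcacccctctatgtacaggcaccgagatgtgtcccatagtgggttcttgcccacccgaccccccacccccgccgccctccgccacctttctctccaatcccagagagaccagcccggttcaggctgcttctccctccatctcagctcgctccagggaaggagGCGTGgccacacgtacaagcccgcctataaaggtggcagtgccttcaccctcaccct
DDB2: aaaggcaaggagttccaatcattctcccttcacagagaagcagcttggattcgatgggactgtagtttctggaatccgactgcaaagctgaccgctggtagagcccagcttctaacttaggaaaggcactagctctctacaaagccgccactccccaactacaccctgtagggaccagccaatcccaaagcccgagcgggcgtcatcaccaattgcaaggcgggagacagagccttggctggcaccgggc
DMRT2: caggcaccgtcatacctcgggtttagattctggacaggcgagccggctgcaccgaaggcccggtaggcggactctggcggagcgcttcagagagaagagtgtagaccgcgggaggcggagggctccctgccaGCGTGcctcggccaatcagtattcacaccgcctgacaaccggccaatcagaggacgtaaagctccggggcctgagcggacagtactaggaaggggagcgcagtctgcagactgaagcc
PARG: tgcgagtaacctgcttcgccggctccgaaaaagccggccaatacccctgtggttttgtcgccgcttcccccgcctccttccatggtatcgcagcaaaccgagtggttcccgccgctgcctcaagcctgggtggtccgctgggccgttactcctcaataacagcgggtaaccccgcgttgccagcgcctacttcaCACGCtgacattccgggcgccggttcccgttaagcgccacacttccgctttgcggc
Of the 8905 tested genes with no copy that matched a promoter in the RefSeq table, 46.1% held the motif on either strand in this window. The share was 47.1% (24 of 51) among genes higher in all treated libraries and 53.1% (17 of 32) among genes lower in all of them. Both shares are described without a test, and a match in this window is a run of letters, not a binding site.

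Genes of the DNA damage response were spread about zero. Of 34 p53 targets tested, 20 lay above control and 14 below, with a median log2 fold change of 0.06, and DDB2 was the 1 member with an unadjusted p below 0.05. Without low replicate 3 and high replicate 3 that median was -0.00694. CDKN1A, which encodes the cell cycle inhibitor p21, stood at 169, 159 and 167 CPM in control and at 158, 187 and 221 CPM as the lowest, median and highest treated libraries. The treated range enclosed the controls, and the log2 fold change was 0.18 ± 0.10 (SE; 95% interval -0.04 to 0.40; edgeR adjusted p = 0.740), with 0.19, 0.03 and 0.29 in low, medium and high. MDM2, the ubiquitin ligase that degrades p53, stood at 145, 134 and 155 CPM in control and at 74.2, 122 and 153 CPM as the lowest, median and highest treated libraries, with the lowest value in low replicate 3. Its log2 fold change was -0.29 ± 0.17 (SE; edgeR adjusted p = 0.740), and -0.16 without low replicate 3 and high replicate 3.

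Of 28 nucleotide excision repair genes, 15 lay above and 13 below control (median 0.04). Beside DDB2, LIG3, a DNA ligase, had an unadjusted p below 0.05, at -0.14 ± 0.06, with 48.3% of its exon bases shared with other genes, and XPA, the scaffold protein of this pathway, was at 0.29 ± 0.14 (log2, SE). Genes of homologous recombination and the Fanconi pathway had 13 of 31 above control (median -0.04), where BARD1 was at -0.20 ± 0.09 and its partner BRCA1 at 0.20 ± 0.10. Translesion synthesis genes had 7 of 16 above control (median -0.02). Among them RAD18, the ligase that marks PCNA for damage bypass, stood at 74.4, 72.7 and 69.9 CPM in control and at 75.0, 77.8 and 85.7 CPM as the lowest, median and highest treated libraries, without overlap (log2 0.14 ± 0.06, SE; edgeR adjusted p = 0.740). In the list of G1/S and replication genes 21 lay above and 21 below control (median -0.01). TK1, thymidine kinase, whose locus serves as the mutation reporter of TK6 cells, was at 0.23 ± 0.09 and UNG, the uracil glycosylase, at -0.24 ± 0.10. G2/M genes were above control in 27 of 39 (median 0.02), with GTSE1 at 0.23 ± 0.11 and HMMR at 0.22 ± 0.11, and apoptosis regulators in 13 of 26 (median 0.00114), with the death receptor adaptor FADD at 0.33 ± 0.13 and BAD at 0.28 ± 0.13. No gene of these lists was called.

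**Figure D4:**
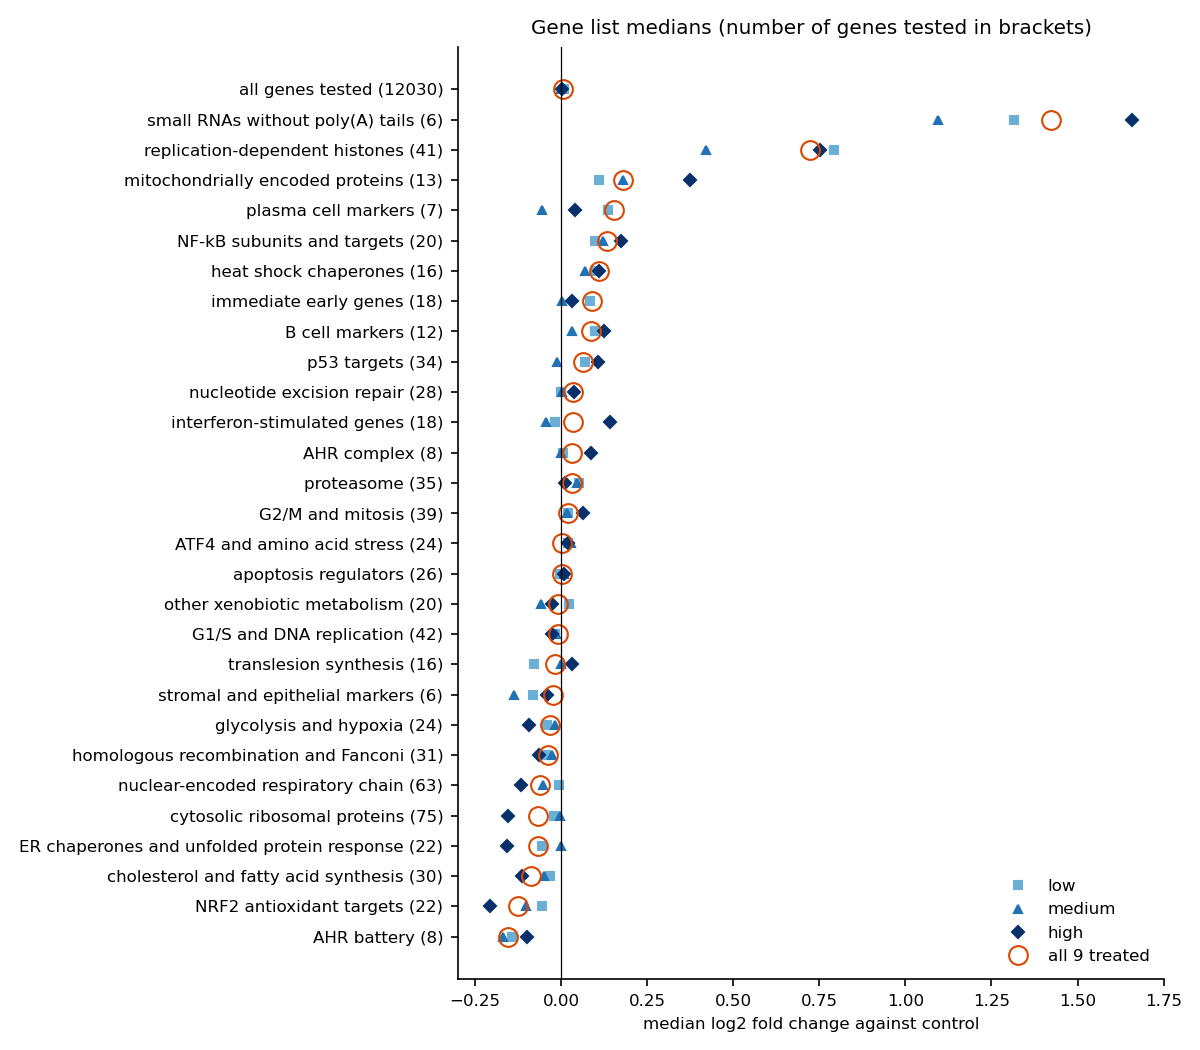
Each row is a gene list with at least 5 tested genes, and symbols give the median log2 fold change against control for all 9 treated libraries (open circle) and for low, medium and high (square, triangle, diamond), which share the same 3 controls. Small RNAs without poly(A) tails (1.42) and replication-dependent histones (0.72) lie apart from the other lists, which range from -0.15 to 0.18.

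Among lists with at least 5 tested genes, the 2 whose medians lay farthest from zero hold RNAs that end without a poly(A) tail. All 6 tested small RNAs were above control, with a median log2 fold change of 1.42 against 0.00583 for all genes, and 38 of 41 replication-dependent histone genes were, with a median of 0.72. The shares of counts behind these medians were very small, at 0.00259 ± 0.00146% in control (SD, n = 3) and 0.00672 ± 0.00548% in treated libraries (SD, n = 9) for the small RNAs, and 0.00923 ± 0.00261% and 0.0140 ± 0.00740% for the histones. RN7SL1, the RNA of the signal recognition particle, stood at 5.58, 3.49 and 1.25 CPM in control and at 1.30, 5.82 and 23.6 CPM as the lowest, median and highest treated libraries. Low replicate 3, high replicate 3, high replicate 1 and medium replicate 1 lay far above the controls, while high replicate 2 lay within their range. Neither share passed an exact permutation test (p = 0.264 and 0.327, 2-sided). H2AC14 was the histone gene whose libraries did not overlap, with 8, 6 and 12 counts in the controls and 11 to 34 in the treated libraries (log2 1.17 ± 0.41, SE), and H4C1 was at 2.19 ± 0.77 with libraries that overlapped. Without low replicate 3 and high replicate 3 the medians were 0.956 for the small RNAs and 0.361 for the histones. Histone genes resemble each other closely, so counts of single members are uncertain, and the part of RNA quality or of poly(A) capture in these values was not tested.

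RNA of the mitochondrial genome had a higher mean share of counts in treated libraries, a difference that did not pass adjustment. The share was 15.7%, 14.6% and 16.9% in the controls, and 15.2%, 18.6% and 23.1% at the lowest, median and highest of the treated libraries, with 7 of 9 above all controls. The mean was 15.7% in control (SD 1.14%, n = 3) and 3.25 percentage points more in treated libraries (SD 2.63%, n = 9; exact permutation p = 0.0455, 2-sided, where 0.00909 is the smallest p that 9 against 3 allow). After adjustment over the 9 library measures examined it did not pass (Benjamini-Hochberg adjusted p = 0.205), and without any 1 library except low replicate 2 or medium replicate 2 the unadjusted p was 0.0606 or more. The 16S ribosomal RNA, RNR2, made up part of it, at 2.48 ± 1.23% in control and 4.27 ± 2.49% in treated libraries (exact permutation p = 0.264), with 7.99% in low replicate 3 and 7.96% in high replicate 3. The mitochondrial protein-coding genes alone took 12.9 ± 2.07% and 14.2 ± 1.13% (exact permutation p = 0.218).

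All 13 mitochondrially encoded protein genes lay above control, with a median log2 fold change of 0.18, and 0 were called. Their values share a transcript source and a scaling, so the 13 genes are not 13 separate observations. COX1, the core subunit of respiratory complex IV, stood at 23978, 26774 and 29834 CPM in control and at 28273, 30294 and 34816 CPM as the lowest, median and highest treated libraries, so that control replicate 3 lay inside the treated range. Its log2 fold change was 0.22 ± 0.09 and that of ND3, a complex I subunit, was 0.35 ± 0.14 (SE; edgeR adjusted p = 0.740 for both). The median of the 13 genes was 0.377 without control replicate 3, 0.0944 without control replicate 1 and 0.107 without control replicate 2. ND4 exceeded control by 0.00397, less than the shift of the median over all genes to -0.0379 when no composition factor is used, so its side of zero depends on the scaling. The nuclear-encoded respiratory chain genes lay on both sides, with 24 above and 39 below control of 63 tested (median -0.06), among them NDUFA13 at 0.24 ± 0.10 and ATP5F1C at 0.17 ± 0.07. Their median was 0.0325 without control replicate 3, -0.152 without control replicate 1 and 0.00156 without low replicate 3 and high replicate 3.

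**Figure D5:**
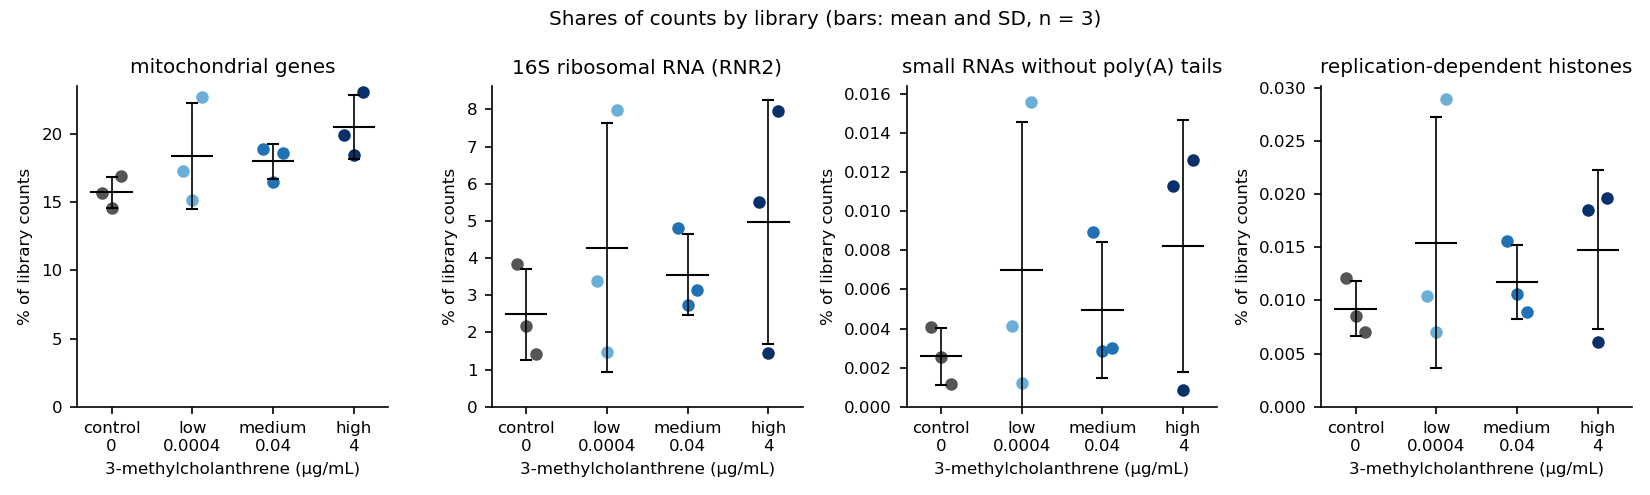
Points are the percentages of each library's counts in mitochondrial genes, in the 16S ribosomal RNA RNR2, in small RNAs without poly(A) tails and in replication-dependent histones, by concentration, with the mean and SD of each 3 libraries. In the last 3 panels low replicate 3 is the highest point, and high replicate 2, at 1.45%, 0.000832% and 0.00613%, lies near or below the lowest control.

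Cytosolic ribosomal protein genes lay below control in 50 of 75 (median -0.07), but the median was 0.0611 without control replicate 3 and 0.0302 without low replicate 3 and high replicate 3. RPS2, a copy gene, shows the part of 1 library: it stood at 5.28, 6.05 and 26.3 CPM in control and at 3.18 to 7.84 CPM in treated libraries, and its log2 fold change of -1.27 ± 0.46 (SE) was -0.11 without control replicate 3. NRF2 antioxidant targets lay below control in 16 of 22 (median -0.12, or -0.0284 without control replicate 3 and -0.0394 without low replicate 3 and high replicate 3), with HMOX1, heme oxygenase, at -0.33 ± 0.21 and GCLC, which makes a precursor of glutathione, at -0.16 ± 0.10. Genes of other xenobiotic metabolism were split 10 to 10 (median -0.01), with NAT1, an arylamine acetyltransferase, at 0.39 ± 0.23 and AKR1A1, an aldo-keto reductase, at 0.13 ± 0.08. Cholesterol and fatty acid synthesis genes lay below in 19 of 30 (median -0.09, or -0.0226 without low replicate 3 and high replicate 3), with LSS, a cyclase of sterol synthesis and a copy gene, at -0.33 ± 0.17. FDFT1, squalene synthase and a copy gene too, was at -1.07 ± 0.46 with control replicate 1 at 23.5 CPM and the remaining controls at 3.39 and 3.24 CPM, and at 0.521 without that library. Glycolysis and hypoxia genes lay below in 15 of 24 (median -0.03, or -0.00432 without low replicate 3 and high replicate 3), with PGAM1 at -0.23 ± 0.13 and P4HA1 at -0.29 ± 0.18. No gene of these lists was called.

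NF-kB subunits and targets lay above control in 18 of 20 (median 0.13, or 0.0828 without low replicate 3 and high replicate 3), and the median was 0.10, 0.12 and 0.17 in low, medium and high. These medians share the same controls. Summed over these 20 tested genes, the control libraries held 2160 to 2570 CPM. Low libraries held 2180 to 3130 CPM, medium 2450 to 2690 CPM and high 2240 to 3030 CPM. RELB, a subunit of the noncanonical branch, had 36.9, 32.8 and 28.4 CPM in control and 30.5, 42.1 and 53.9 CPM as the lowest, median and highest of the treated libraries, which overlapped (log2 0.31 ± 0.15, SE; edgeR adjusted p = 0.740). SQSTM1, the autophagy receptor p62, is a copy gene and varied most: it had 1.52, 2.87 and 1.32 CPM in control and 1.81, 19.4 and 57.1 CPM as the lowest, median and highest of the treated libraries. All 3 medium libraries lay between 21.2 and 28.1 CPM, well above the controls, while in low and high 1 library each (57.1 and 19.4 CPM) did and the others lay between 1.81 and 2.97 CPM. Its log2 fold change was 3.20 ± 1.08 (SE; edgeR adjusted p = 0.740). Heat shock chaperones were above control in 13 of 16 (median 0.11), with DNAJA1 at 0.21 ± 0.10 and FKBP4 at 0.14 ± 0.08, and immediate early genes in 12 of 18 (median 0.09), with KLF6 at 0.29 ± 0.17 and JUNB at -0.10 ± 0.06. The median of the immediate early genes was 0.00386 without control replicate 1 and 0.0413 without low replicate 3 and high replicate 3. Interferon-stimulated genes were above in 10 of 18 (median 0.03, or -0.0422 without control replicate 1 and 0.0214 without low replicate 3 and high replicate 3), with IFIT3 at 0.38 ± 0.19 and STAT2 at -0.27 ± 0.14. Endoplasmic reticulum chaperones were above in 8 of 22 (median -0.07, or -0.0112 without low replicate 3 and high replicate 3), with MANF at 0.25 ± 0.13 and DNAJB9 at -0.20 ± 0.13, and ATF4 targets in 12 of 24 (median 0.00262), with the tRNA exporter XPOT at -0.16 ± 0.08. No member of these lists was called. With no composition factor, where the median over all genes moved to -0.0379, the medians of the AHR complex, nucleotide excision repair, G2/M, interferon-stimulated, ATF4, apoptosis and proteasome lists turned from just above zero to just below it.

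B cell markers were above control in 9 of 12 tested (median 0.09), with EBF1, a B-lineage transcription factor, at 0.26 ± 0.15 and CD79B, a chain of the antigen receptor, at 0.16 ± 0.10. With 1 control library left out EBF1 ran from 0.147 to 0.419 and CD79B from 0.0727 to 0.281, and the list's median was 0.0451 without low replicate 3 and high replicate 3. TNFRSF17, the plasma cell receptor BCMA, stood at 10.4, 7.49 and 8.97 CPM in control and at 9.81, 12.8 and 15.1 CPM as the lowest, median and highest treated libraries (log2 0.46 ± 0.14, SE; unadjusted p = 0.00810, edgeR adjusted p = 0.740). The lowest treated library lay inside the control range. CD38, another plasma cell marker, lay on the other side at -0.55 ± 0.39 (SE; edgeR adjusted p = 0.740). It stood at 5.38, 3.69 and 3.46 CPM in control and at 1.11, 2.98 and 4.67 CPM as the lowest, median and highest treated libraries. The 7 tested plasma cell markers, 4 above control and 3 below, had a median of 0.15 that was -0.0457 without low replicate 3 and high replicate 3. They summed to between 993 and 1160 CPM in control and between 677 and 1170 CPM in treated libraries. Stromal and epithelial markers lay above control in 2 of 6 (median -0.02, or 0.00707 without low replicate 3 and high replicate 3).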

How the data were processed

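Polyadenylated RNA of 12 TK6 samples was sequenced as pairs of 150 nt. Per the submitters' processing notes, the genome build was GRCh38.p14 and the tools included featureCounts 2.0.6, HISAT2 2.2.1, fastp 0.23.4 and MultiQC 1.27. How strand and multiply aligned reads were treated is not given in the sources used here. As raw values the authors deposited read counts for 50006 gene entries and, per library, CPM, which equalled the count divided by the library total within 5e-05. Gene names were taken from the count table, since 51 were altered in each CPM file. Of the entries, 5956 carry a copy suffix, and 68.7% of counts from 1 to 10 were even, so counts may overstate independent fragments.

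Genes were filtered with filterByExpr on exposure, scaled with TMM and fitted with edgeR 4.0.16 (R 4.3.3; glmQLFit, glmQLFTest; 10 residual degrees of freedom). Benjamini-Hochberg adjustment ran over all 12030 genes. CPM printed here are on the TMM scale. Per-concentration values and the F test came from a model of 4 groups. Library shares were compared with exact permutation tests (scipy 1.17.1). The scripts were tested on simulated data. Floors use 3 counts and cover counting error only. Named were 9 fixed genes, called genes (up to 10 per direction), the 6 smallest p per direction without a copy, up to 6 genes per direction with no overlap and a mean of at least 10 CPM, and the 2 smallest p of each of 32 lists. NIPA2_1, ZNHIT3_1, SURF4_1, LDHA_1 and the chromosome 17 entry of GGNBP2, and NFE2L2, were chosen after their values were seen. The members and lists were chosen with earlier results of these data known. Replicate numbers recur in each group, and deviations of same-numbered libraries correlated from -0.375 to 0.582, so the numbers were not used as pairs. Alternatives covered normalization, count filters, DESeq2 1.42.0, limma 3.58.1 (voom and trend), the 4-group model, a replicate block, concentrations left out and libraries left out. Summed copies, no copy genes, and leaving out low replicate 3 with high replicate 3 were added after seeing the data.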

Additional observations from a re-analysis of the deposited data

Results flagged for a closer look

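In 11 of 93 groups of 9 treated libraries tested, the highest or lowest library stood farther from its nearest neighbour than Dixon's limit of 0.493 of the range allows; chance gives about 1 in 20. Low replicate 3 was the highest library for DMRT2 (25.8 CPM, next 22.1), H2AC14 (3.78 CPM, next 2.19), H4C1 (8.56 CPM, next 4.29) and SQSTM1 (57.1 CPM, next 28.1), and the lowest for MGME1 (13.8 CPM, next 24.8). High replicate 3 was the highest for JUNB (88.4 CPM, next 82.4) and EBF1 (36.1 CPM, next 28.1) and the lowest for SLC7A5 (433 CPM, next 517). High replicate 2 was the highest for TRAC, a T-cell receptor constant gene (7.36 CPM, next 3.97), and for the mitochondrial protein-coding share of counts (16.8%, next 15.1%). Low replicate 2 was the lowest for S100A9, a myeloid calcium-binding protein (7.28 CPM, next 10.6).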

How the results depend on the processing

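GGNBP2_1 was called under each setting that kept its entry apart, with a log2 fold change between -3.37 and -3.12 and an adjusted p between 0.000229 and 0.0126 with 1 library left out. The count of called genes was 4 with DESeq2 (1 higher), 1 with limma voom, 1 with limma-trend on log2 of CPM plus 1 or plus 0.1, and 1 without the low, the medium or the high libraries. It ran from 1 to 3 with 1 library left out (1 without control replicate 3, 3 without control replicate 1). It was 1 with copies summed, where the gene was PSMC4 in place of GGNBP2_1, 0 without genes with a copy (418 at an unadjusted p below 0.05), and 3 without low replicate 3 and high replicate 3, with 1 higher. Among the 3 concentrations the F test called 12 genes with DESeq2, and 0 to 4 with 1 library left out (4 without low replicate 2, 1 without medium replicate 2). With the replicate number as a block it called 1, and the comparison with control called the same 2 genes, with 916 at an unadjusted p below 0.05; 5 of 12 libraries correlated best with their own number. The block changed no other call.

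The difference in mitochondrial share was 3.74 points without medium (exact permutation p = 0.0714), 2.50 without high (p = 0.119), and 2.70 to 3.84 with 1 library left out. Of 2343 values of 84 named genes under the alternatives, 2330 kept direction and call, 9 lost a call (8 of PSMC4 and GGNBP2_1 with copies summed) and 4 changed sign: TIPARP without control replicate 2 (0.00404; range with 1 library left out -0.201 to 0.00404), NKG7 without control replicate 3 (-0.276 to 0.0615), and FDFT1 without control replicate 1 (-1.49 to 0.521) and with copies summed (0.208). The cause was not tested. The median over all genes moved by less than 0.1 on the log2 scale under each scaling.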
